A study of Mus musculus with 7 samples.

Results

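The genes described here are 35 genes of endothelial cells, the cells that line blood vessels, followed through RNA of mouse femoral bone. They were chosen by name, and each was taken from the count files where its gene symbol equalled the listed name. All 35 were among the 27179 genes in the files, and all 35 were among the 15098 genes tested after a filter on low counts. The bones came from C57BL/6 female mice of 12 weeks, with the femoral ends cut off and the marrow flushed out. There were 3 libraries labelled Dmp1Cre.EfnB2f/f, in which Cre recombinase driven by the Dmp1 promoter is meant to remove floxed Efnb2 from late osteoblasts and osteocytes, and 4 Dmp1Cre control libraries, which carry the same Cre without the floxed gene. The Cre is not directed at endothelial cells, so the comparison asks how vessel transcripts stood in bone whose osteocytes were the target. Replicates 1 and 2 labelled Dmp1Cre.EfnB2f/f (f/f below) shared 1 parent cross, controls 1 and 2 shared another, control 3 and f/f replicate 3 came from a single cross, and control 4 from its own.

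Bone is supplied by arteries and arterioles that open into capillaries along the bone surface and into wide sinusoids in the marrow. Endothelial cells of all these vessels share adhesion proteins such as PECAM1 and VE-cadherin, and they share receptors for vascular endothelial growth factors (VEGFs) and angiopoietins. Sinusoidal cells carry in addition the scavenger receptor stabilin-2 (Stab2) and the VEGF-C receptor VEGFR3 (Flt4), and arterial cells use Notch target genes and ephrin-B2 itself, whose partner EphB4 marks veins. Several genes of the list are shared with other cells left in flushed bone. Vwf, Mmrn1, Fli1 and Pecam1 are shared with megakaryocytes, and Stab1 and Lyve1 with macrophages. Cd34 and Erg are shared with blood progenitors, and Ets1 with lymphocytes.

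The libraries held 17245556 to 22075778 assigned counts, and the 35 genes took 0.209% to 0.293% of them. Controls 1 and 4 stood apart from the other 5 libraries on the first principal component of all genes tested (scores of 43.9 and 68.8 against -41.4 to -1.76), so values are also given with both left out. Efnb2, the targeted gene, had 17.9, 13.1 and 11.8 CPM (counts scaled to library size and normalized by TMM) in the 3 f/f libraries and 8.49, 7.93, 6.44 and 6.36 CPM in the 4 controls. Each f/f library was above every control, which is not the direction that the label gives, and the log2 fold change by the quasi-likelihood test of edgeR was 0.96 (SE 0.21, adjusted p = 0.511 after Benjamini-Hochberg). The count covers the whole gene and all cells of the bone, so it does not measure the floxed part or the osteocytes alone. Directions below are those of the libraries as labelled.

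All 35 endothelial genes were expressed in bone whose marrow had been flushed. Per gene length, in RPKM (normalized CPM per kilobase of gene length), their means over the 7 libraries ran from 68.1 for Vwf, the von Willebrand factor of platelet adhesion, to 0.515 for Sox7, a transcription factor of the SoxF family. After Vwf came Pecam1 (45.3 RPKM), an adhesion molecule of endothelial junctions, Fli1 (43.9 RPKM) and Ets1 (41.0 RPKM), both ETS transcription factors, and Egfl7 (36.3 RPKM), a secreted vessel protein. The low end held Nos3 (2.64 RPKM), the endothelial nitric oxide synthase, Lyve1 (2.58 RPKM), a hyaluronan receptor, Sox17 (1.97 RPKM) and Sox7. Of 34 pairs of neighbours in this order, 33 had ranges over the 7 libraries that overlapped, and the 1 pair apart was Sox17 over Sox7. The ratio of the highest to the lowest library ran from 1.28 for Ets1 to 6.77 for Lyve1, with a median of 2.08.

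**Figure D1:**
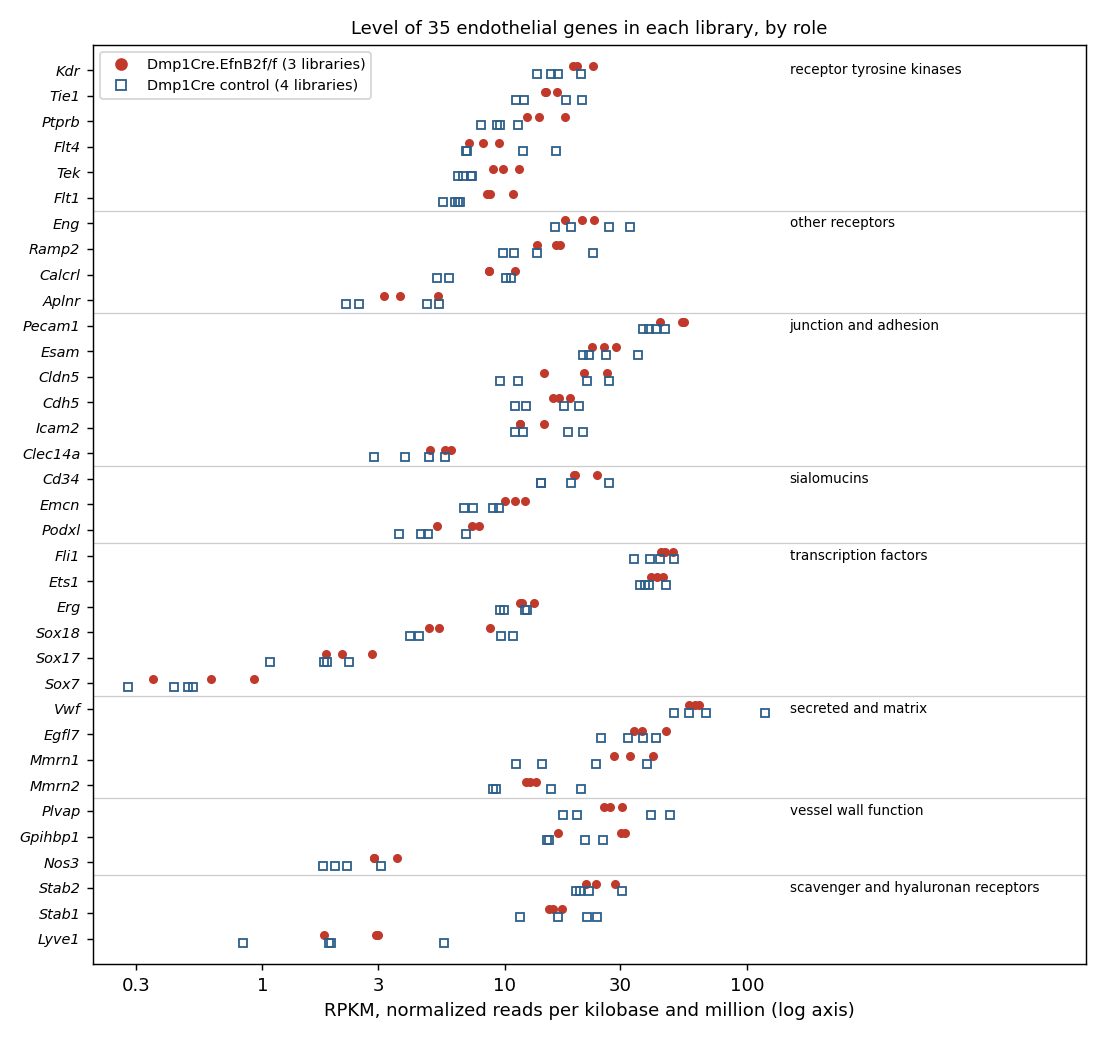
Level of each endothelial gene in each of the 7 libraries, in RPKM on a log axis, with filled circles for the 3 f/f libraries and open squares for the 4 controls, and genes grouped by role and ordered by mean level within a role. Vwf had the highest mean (68.1 RPKM) and Sox7 the lowest (0.515 RPKM), and for Tek, Flt1, Ptprb and Emcn the circles lie to the right of every square.

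Between the genotypes, 25 of the 35 genes were higher in the f/f libraries and 10 were lower, with a median log2 fold change of 0.16 against 0.01 over all genes tested, of which 51.3% were higher. The direction turned under at least 1 of 18 alternative settings for 9 of the 25 higher genes and for 10 of the 10 lower genes. None of the 35 passed the test at an adjusted p of 0.05 (quasi-likelihood test of edgeR, Benjamini-Hochberg over 15098 genes, adjusted p from 0.511 to 0.998), and neither did any other gene (0% of 15098). At an unadjusted p of 0.05, 4 of the 35 were higher and 0 lower, against 4.63% of all genes higher and 5.03% lower. The same 4, Tek, Flt1, Ptprb and Emcn, were the ones whose 3 f/f libraries all lay above the 4 controls, a separation found for 5.05% of all genes, and 0 lay below, against 6.3%. The lowest of the 7 libraries was a control for 35 of the 35 genes, against 68.4% of all genes. Control 3 was lowest for 13, control 2 for 10, control 4 for 7 and control 1 for 5.

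The highest library was an f/f library for 16 genes, of which f/f replicate 1 took 12, and a control for 19, of which control 4 took 14. The f/f libraries lay closer together than the controls for 28 of the 35 genes, by the SD of CPM, as they did for 81.8% of all genes. In bulk bone RNA a change in the number of endothelial cells and a change in the RNA of each cell cannot be told apart.

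**Figure D2:**
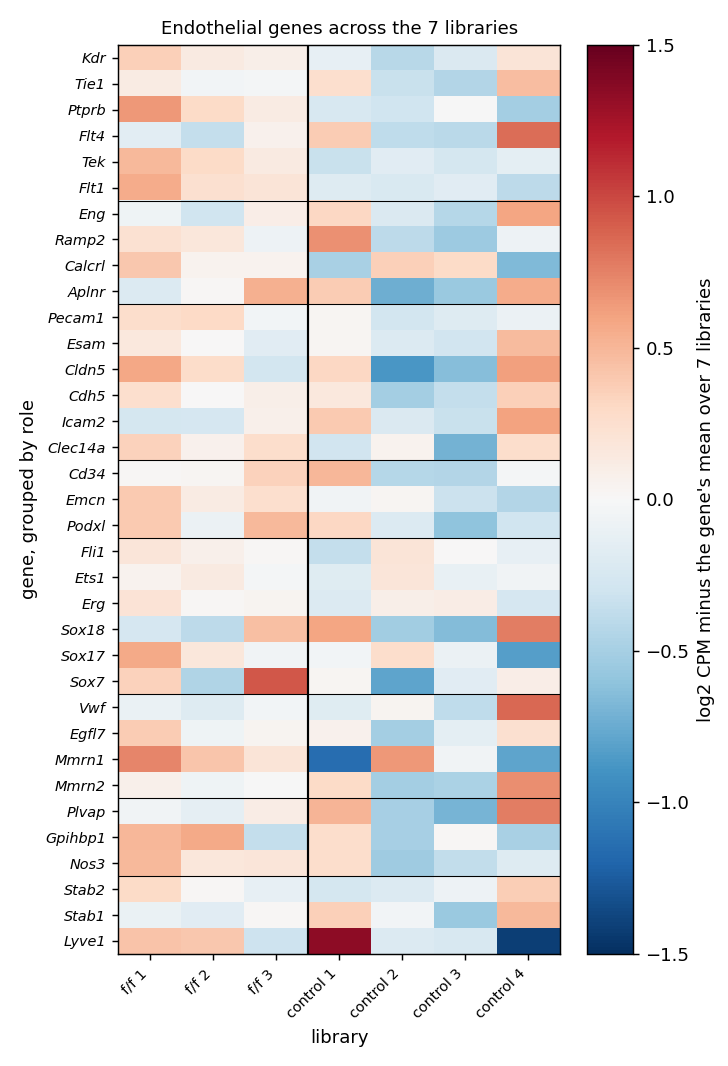
Deviation of each of the 35 genes from its own mean over the 7 libraries, in log2 CPM, with f/f libraries left and controls right of the vertical line and genes grouped by role. Controls 2 and 3 are low (blue) over most genes, f/f replicate 1 is high (red) over most, and control 4 is high for many genes but low for others such as Sox17, Mmrn1 and Lyve1.

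Among the 6 receptor and phosphatase genes of VEGF and angiopoietin signalling, 4 were higher in f/f and 2 lower, with a median log2 fold change of 0.43, and this group held 3 of the 4 genes without overlap. Tek encodes TIE2, the receptor of the angiopoietins. It had 53.1, 46.0 and 41.6 CPM in the f/f libraries and 29.9, 33.65, 31.4 and 34.2 CPM in the controls. All 3 f/f libraries were above all 4 controls, and the controls kept within a narrow band (32.3 ± 1.99 CPM, SD, n = 4, against 46.9 ± 5.77 CPM, SD, n = 3). Its log2 fold change was 0.54 (SE 0.15, 95% interval 0.19 to 0.88, unadjusted p = 0.00649 and adjusted p = 0.511 by edgeR). The two-sided exact permutation test over the 7 libraries gave p = 0.0286, the smallest that 3 against 4 allow. It treats the 7 libraries as independent, although some share a parent cross.

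Flt1 encodes VEGFR1, a receptor that binds VEGF-A, VEGF-B and placental growth factor. It had 67.8, 54.7 and 53.0 CPM in f/f and 40.2, 39.3, 41.1 and 35.1 CPM in the controls. Again no library of one group reached the other, and the log2 fold change was 0.59 (SE 0.16, 95% interval 0.23 to 0.94, unadjusted p = 0.00455 and adjusted p = 0.511 by edgeR). Ptprb encodes VE-PTP, a phosphatase that acts on TIE2 and on VE-cadherin contacts. Its level was 212, 166 and 148 CPM in f/f and 114.5, 110.3, 135 and 94.9 CPM in the controls, so that the nearest libraries, f/f replicate 3 and control 3, were those of the shared cross. The log2 fold change of Ptprb was 0.62 (SE 0.19, 95% interval 0.19 to 1.06, unadjusted p = 0.00995 and adjusted p = 0.511 by edgeR), and both Flt1 and Ptprb had an exact permutation p of 0.0286.

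Kdr, which encodes VEGFR2, the main signalling receptor of VEGF-A, was the highest of the group per length (18.4 RPKM). It had 126, 108 and 105 CPM in f/f and 90.8, 73.9, 85.0 and 113 CPM in the controls. Only control 4 entered the f/f range, and the log2 fold change was 0.32 (SE 0.18, unadjusted p = 0.111 by edgeR). Tie1, the orphan receptor that pairs with TIE2, had 63.8, 57.0 and 57.5 CPM in f/f and 69.6, 46.6, 43.3 and 80.8 CPM in the controls, with controls 1 and 4 above and controls 2 and 3 below all f/f libraries, and its direction turned under 11 of 18 alternative settings.

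**Figure D3:**
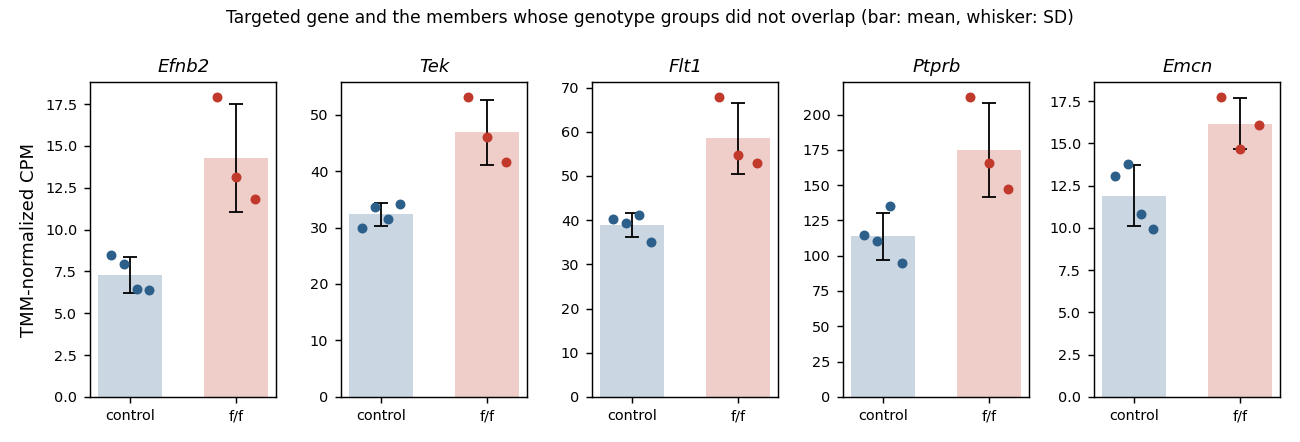
TMM-normalized CPM of Efnb2 and of the 4 endothelial genes whose groups did not overlap, with 1 point per library, bars at the group mean and whiskers of 1 SD (n = 4 controls, n = 3 f/f). Each f/f point is above each control point in all 5 panels, with means of 46.9 against 32.3 CPM for Tek and 175 against 114 CPM for Ptprb.

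Emcn was the fourth gene without overlap and is one of the 3 sialomucins, heavily glycosylated surface proteins. Endomucin is high in capillary and venous endothelium and is used with PECAM1 to grade the capillaries of bone. Its level was 17.7, 14.7 and 16.1 CPM in f/f and 13.1, 13.8, 10.8 and 9.94 CPM in the controls, with f/f replicate 2 and control 2 less than 1 CPM apart. The log2 fold change was 0.44 (SE 0.18, 95% interval 0.02 to 0.86, unadjusted p = 0.0408 and adjusted p = 0.511 by edgeR), and the exact permutation p was 0.0571.

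The promoters of these genes are shown because they are the members that stood above every control, and those of Flt4 and Stab2 because they represent the sinusoidal genes that did not. Each runs from 250 bases before to 50 bases after a start in RefSeq, build GRCm38.p6, 5′ to 3′ on the strand of the gene. That start is not always the outer end of the gene, and the Flt1 region lies inside the span of Flt1, which ends at 147726438. Most of the Tek region lies inside the span of Tek, which starts at 94739086. The span of Stab2 ends within the Stab2 region, at 87008038. Capitals mark GGAA or its reverse complement TTCC, the core letters of the sites that ETS factors such as ERG and FLI1 bind. Ptprb had no entry in that table. The regions are chr4:94739039-94739338 (plus strand) for Tek, chr5:147725962-147726261 (minus) for Flt1, chr3:137340828-137341127 (plus) for Emcn, chr11:49609429-49609728 (plus) for Flt4 and chr10:87007893-87008192 (minus) for Stab2.
Tek: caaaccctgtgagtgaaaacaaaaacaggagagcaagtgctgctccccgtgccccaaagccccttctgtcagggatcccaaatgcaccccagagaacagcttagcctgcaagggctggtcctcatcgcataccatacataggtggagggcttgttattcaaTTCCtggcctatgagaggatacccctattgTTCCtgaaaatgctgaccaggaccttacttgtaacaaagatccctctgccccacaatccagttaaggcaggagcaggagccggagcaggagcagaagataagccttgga
Flt1: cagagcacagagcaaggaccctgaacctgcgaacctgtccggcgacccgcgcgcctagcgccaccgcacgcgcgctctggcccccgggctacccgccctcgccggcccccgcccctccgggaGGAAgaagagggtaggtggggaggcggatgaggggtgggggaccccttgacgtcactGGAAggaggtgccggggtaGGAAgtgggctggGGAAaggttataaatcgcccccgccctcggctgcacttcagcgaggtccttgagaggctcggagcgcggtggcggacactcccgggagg
Emcn: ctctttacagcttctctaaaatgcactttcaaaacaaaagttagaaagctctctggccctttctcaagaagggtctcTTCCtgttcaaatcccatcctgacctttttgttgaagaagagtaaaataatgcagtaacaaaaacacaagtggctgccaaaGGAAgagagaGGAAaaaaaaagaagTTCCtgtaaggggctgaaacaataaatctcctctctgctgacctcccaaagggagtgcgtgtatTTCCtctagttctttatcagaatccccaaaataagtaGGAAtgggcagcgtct
Flt4: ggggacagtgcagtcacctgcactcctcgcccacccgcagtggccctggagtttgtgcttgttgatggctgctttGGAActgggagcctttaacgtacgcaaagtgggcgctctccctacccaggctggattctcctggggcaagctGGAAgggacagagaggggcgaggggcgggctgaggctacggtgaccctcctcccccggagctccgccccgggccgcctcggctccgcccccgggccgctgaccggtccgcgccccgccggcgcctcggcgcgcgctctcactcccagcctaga
Stab2: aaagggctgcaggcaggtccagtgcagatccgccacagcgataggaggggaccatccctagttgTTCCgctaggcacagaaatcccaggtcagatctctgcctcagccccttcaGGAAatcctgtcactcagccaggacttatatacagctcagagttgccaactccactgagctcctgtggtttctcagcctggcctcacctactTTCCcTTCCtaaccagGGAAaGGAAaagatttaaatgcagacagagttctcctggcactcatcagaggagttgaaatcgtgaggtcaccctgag
The core occurred 2 times in the Tek promoter, 4 times in that of Flt1 and 6 times in that of Emcn, and it occurred 2 times in that of Flt4 and 6 times in that of Stab2.

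Of the 35 genes, 16 had at least 1 promoter in the table, 20 promoters in all, with 3 each from Erg and Egfl7. On either strand GGAA was in 95% of these 20 and in 96.0% of all 32851 promoters, so the bare core does not set them apart. The longer AGGAAG, which contains that core, was in 11 of the 20 (55.0%) against 35.4% of all promoters, and CAGGAAG, which contains both, in 7 (35%) against 13.3%. AACAAT, letters that SOX factors bind, was in 5 (25%) against 10.7%. By gene, AGGAAG was in 10 of the 16, CAGGAAG in 6 and AACAAT in 5, with no share by gene taken over all genes. These are shares of letter matches and say nothing of binding.

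The other 2 sialomucins were higher in f/f but overlapped. Podxl, which encodes podocalyxin, had 39.1, 27.9 and 41.7 CPM in f/f and 36.9, 25.7, 19.5 and 24.2 CPM in the controls. Control 1 lay among the f/f libraries, and the log2 fold change was 0.45 (SE 0.24, unadjusted p = 0.102 by edgeR). Cd34, also a progenitor antigen, had 50.5, 51.0 and 63.3 CPM in f/f and 70.7, 37.2, 37.0 and 49.1 CPM in the controls, where control 1 was the highest of all 7, and its log2 fold change was 0.18 (SE 0.25, unadjusted p = 0.492 by edgeR).

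The sinusoidal genes showed no difference beyond their spread. Stab2, the scavenger receptor that clears hyaluronan, had 233, 193 and 176 CPM in f/f and 159.7, 166, 182 and 247 CPM in the controls. Control 4 was the highest and control 1 the lowest, with the f/f libraries between them, and the log2 fold change was 0.09 (SE 0.21, 95% interval -0.38 to 0.56, unadjusted p = 0.685 by edgeR). Flt4 had 47.8, 41.5 and 55.6 CPM in f/f and 69.2, 40.9, 40.3 and 94.8 CPM in the controls, with controls 1 and 4 above and controls 2 and 3 below every f/f library. The log2 fold change of Flt4 was -0.34 (SE 0.31, 95% interval -1.06 to 0.37, unadjusted p = 0.303 by edgeR), the lowest of the 35, and with controls 1 and 4 left out it was 0.25.

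The remaining scavenger and hyaluronan receptors also overlapped. Stab1, the stabilin shared with macrophages, had 127, 122 and 138 CPM in f/f and 175, 133, 92.5 and 192 CPM in the controls (unadjusted p = 0.446 by edgeR), again with controls 1 and 4 highest. Lyve1 had 7.84, 7.68 and 4.69 CPM in f/f and 14.7, 5.02, 4.92 and 2.17 CPM in the controls. Control 1 was the highest and control 4 the lowest, so the 2 libraries that stood together on the first principal component were at opposite ends for Lyve1.

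Among the 4 other receptors, 3 were higher and 1 lower in f/f, with a median log2 fold change of 0.12 and 0 without overlap. Eng, which encodes endoglin, a co-receptor of the BMP and TGF-beta family, was the highest per length (22.4 RPKM) and had 74.4, 63.3 and 83.4 CPM in f/f against 96.5, 67.1, 57.7 and 118 CPM in the controls. Calcrl and Ramp2 encode the receptor and partner that together bind adrenomedullin, yet they were not ordered alike across the controls. Calcrl had 52.2, 40.8 and 40.7 CPM in f/f and 28.0, 50.4, 48.0 and 24.8 CPM in the controls, so controls 1 and 4 were its lowest libraries. Ramp2 had 14.7, 14.2 and 11.9 CPM in f/f and 20.2, 9.53, 8.61 and 11.8 CPM in the controls, so control 1 was its highest. Aplnr, the apelin receptor and the lowest of the group per length (3.86 RPKM), had 11.3, 13.2 and 18.9 CPM in f/f and 17.0, 7.87, 8.90 and 19.1 CPM in the controls.

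Of the 6 junction and adhesion genes, 4 were higher and 2 lower in f/f, with a median log2 fold change of 0.21. Pecam1 came nearest to separation, with 178, 182 and 144 CPM in f/f and 152, 123, 130.1 and 139 CPM in the controls. Only control 1 exceeded an f/f library, replicate 3, and the log2 fold change was 0.31 (SE 0.16, unadjusted p = 0.0897 by edgeR). Cdh5, VE-cadherin of the adherens junctions, had 74.5, 63.3 and 66.9 CPM in f/f and 70.2, 44.0, 48.8 and 80.7 CPM in the controls. Cldn5, the claudin of endothelial tight junctions, had 37.3, 30.2 and 20.7 CPM in f/f and 31.0, 13.6, 16.0 and 38.4 CPM in the controls. For Cdh5 and Cldn5 alike the f/f libraries were above controls 2 and 3, while control 4 was the highest of the 7.

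Clec14a, an endothelial lectin-like receptor, had 27.2, 22.4 and 25.8 CPM in f/f and 17.6, 22.1, 13.1 and 25.8 CPM in the controls, with a log2 fold change of 0.36 (SE 0.24, unadjusted p = 0.169 by edgeR). Esam, a junction protein also found on platelets, had 53.4, 47.9 and 42.4 CPM in f/f and 48.6, 41.2, 39.1 and 66.1 CPM in the controls. Icam2, a ligand of leukocyte integrins, had 13.2, 13.3 and 16.7 CPM in f/f and 20.8, 13.6, 12.6 and 24.1 CPM in the controls. Both Esam and Icam2 peaked in control 4, their groups overlapped, and their unadjusted p were 0.905 and 0.274 by edgeR. The direction of Esam turned under 7 of 18 alternative settings and that of Icam2 under 2.

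The 6 transcription factors split by family in level and in spread. The ETS factors Fli1, Ets1 and Erg were the steadiest genes of the list, with highest to lowest library ratios of 1.46, 1.28 and 1.37. Fli1 had 153, 142 and 136 CPM in f/f and 105, 154, 135 and 124 CPM in the controls. Erg had 29.1, 25.7 and 26.1 CPM in f/f and 21.9, 26.8, 27.4 and 21.2 CPM in the controls, and in both genes control 1 and control 4 were the lowest of the 7.

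The SoxF factors, which direct arterial and lymphatic fate, were lower in level and less even. Sox17 had 8.84, 6.69 and 5.75 CPM in f/f and 5.80, 7.13, 5.62 and 3.37 CPM in the controls (log2 fold change 0.37, SE 0.28, unadjusted p = 0.225 by edgeR). Sox7 had 2.00, 1.15 and 3.00 CPM in f/f and 1.605, 0.913, 1.41 and 1.69 CPM in the controls (log2 fold change 0.55, SE 0.37, unadjusted p = 0.179 by edgeR). Sox18 had 8.67, 7.90 and 14.1 CPM in f/f and 15.6, 7.19, 6.62 and 17.6 CPM in the controls. Control 4 was thus the lowest library for Sox17 and the highest for Sox18, within a single family.

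Secreted and matrix proteins were 2 higher and 2 lower, with a median log2 fold change of 0.05. Vwf had 539, 507 and 561 CPM in f/f and 511, 596, 442.5 and 1047 CPM in the controls. Control 4 alone stood far above the others, where the summed level of 10 megakaryocyte and platelet markers was also highest (3352 CPM, against 1471 to 2262 CPM in the other 6 libraries), and the part of those cells in the value was not tested. The log2 fold change of Vwf was -0.28 (SE 0.31, unadjusted p = 0.395 by edgeR) and 0.05 without control 4. Mmrn1, multimerin 1 of platelets and endothelium, went the other way in that library, with 189.8, 153 and 131 CPM in f/f and 51.9, 180.2, 111 and 66.0 CPM in the controls. The log2 fold change came to 0.63 (SE 0.40, unadjusted p = 0.149 by edgeR), the largest of the 35 but with the second control among the f/f libraries. Mmrn2, its endothelial relative, had 52.8, 48.1 and 49.9 CPM in f/f and 61.3, 35.2, 36.1 and 81.6 CPM in the controls, and Egfl7 had 75.4, 55.4 and 59.9 CPM in f/f and 60.7, 40.7, 52.5 and 68.4 CPM in the controls.

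Of the 3 genes of vessel wall function, Nos3 had 14.8, 11.9 and 12.0 CPM in f/f and 12.7, 7.30, 8.2 and 9.24 CPM in the controls. Only control 1 entered the f/f range, and the log2 fold change was 0.46 (SE 0.23, unadjusted p = 0.0749 by edgeR). Gpihbp1, which holds lipoprotein lipase on the capillary wall, had 24.0, 25.1 and 13.2 CPM in f/f and 20.3, 12.0, 17.1 and 12.1 CPM in the controls, with f/f replicate 3 apart from the other f/f libraries. Plvap, the protein of fenestral diaphragms in permeable capillaries and sinusoids, had 54.9, 51.8 and 61.4 CPM in f/f and 81.0, 40.1, 35.1 and 97.1 CPM in the controls, the same order as Flt4, with controls 1 and 4 above and controls 2 and 3 below every f/f library.

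**Figure D4:**
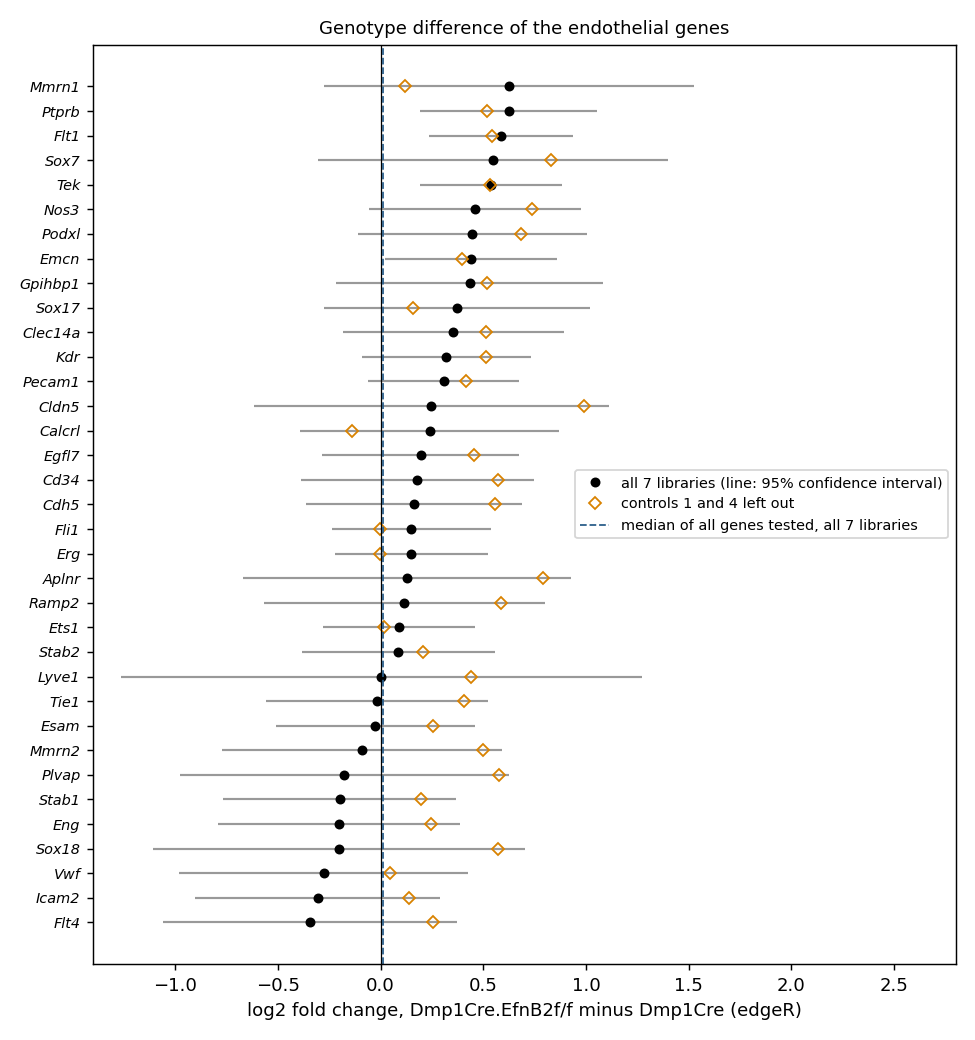
Log2 fold change (f/f minus control) of the 35 genes, with filled circles and 95% intervals from all 7 libraries, open diamonds from the 5 libraries left without controls 1 and 4, and a dashed line at the median of all genes tested (0.01). The intervals of Tek, Flt1, Ptprb and Emcn lie above 0, and 32 of the 35 diamonds do.

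The controls did not vary as one group. For 19 of the 35 genes controls 1 and 4 were both above controls 2 and 3 (36.3% of all genes), for 4 they were both below (Calcrl, Fli1, Erg and Mmrn1, 32.9% of all genes), and 12 showed neither order (30.8% of all genes). With controls 1 and 4 left out, the f/f libraries were above both remaining controls for 21 of the 35 genes and below both for 0, against 19.6% of all genes above, and 17 had an unadjusted p under 0.05, all higher, against 10.3% of all genes higher. The median log2 fold change was then 0.45, while the lowest adjusted p was 0.121 (quasi-likelihood test of edgeR, Benjamini-Hochberg). By role, the 21 were 6 of the 6 VEGF and angiopoietin receptor and phosphatase genes, 5 of the 6 junction genes, 3 of the 3 sialomucins, 2 of the 4 other receptors, 2 of the 4 secreted genes, 2 of the 3 vessel wall genes, 1 of the 6 transcription factors (Sox18) and 0 of the 3 scavenger and hyaluronan receptors. Leaving out these 2 controls was chosen because of where they stood on the principal component of these same data. The controls kept, 2 and 3, had the lowest median log2 deviation over the 35 genes (-0.231 and -0.305, against 0.064 and 0.058 in controls 1 and 4). The larger count of 21 therefore cannot be told apart from the choice of controls.

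When limma with sample quality weights, the kind of test the study used, was run instead, 10 of the 35 were higher at an adjusted p under 0.05 and 0 lower, against 7.49% of all genes higher. The 10 were Tek, Flt1, Kdr, Ptprb, Pecam1, Cdh5, Cldn5, Cd34, Nos3 and Gpihbp1, with adjusted p from 0.0118 to 0.0454 (limma, Benjamini-Hochberg). Emcn was not among them (adjusted p = 0.327). The weights lower the share of libraries that fit their group poorly, and without weights limma called 0.

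Within the single cross that gave a library of each genotype, f/f replicate 3 was above control 3 for 30 of the 35 genes (50.6% of all genes) and at least 1.5 times as high for 7 (10.7% of all genes). These 7 were Podxl (2.14 times), Sox7 (2.14 times), Sox18 (2.13 times), Aplnr (2.13 times), Clec14a (1.97 times), Plvap (1.75 times) and Cd34 (1.71 times). Of the 4 genes without overlap, Emcn was 1.48 times, Tek 1.32 times, Flt1 1.29 times and Ptprb 1.09 times as high. These are ratios of 1 mouse to 1 mouse, with no replicate check. Control 3 also had the lowest median log2 deviation of all libraries over the 35 genes (-0.305). A low level in that mouse and a difference of genotype cannot be told apart here.

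Other vessel genes were counted from lists outside the 35. Of 9 arterial genes 6 were higher and 3 lower in f/f, with a median log2 fold change of 0.42, 2 without overlap (5.05% of all genes) and 0 past the adjusted threshold. The 2 were Efnb2, the targeted gene itself, and Hey1, a Notch target, with 6.23, 6.03 and 6.69 CPM in f/f against 5.54, 3.14, 2.87 and 5.11 CPM in the controls (log2 fold change 0.60, SE 0.28, unadjusted p = 0.0602 by edgeR). Sema3g, an arterial semaphorin, had 36.1, 29.4 and 22.0 CPM in f/f and 24.1, 21.2, 19.4 and 15.9 CPM in the controls, with control 1 above f/f replicate 3 (log2 fold change 0.53, SE 0.22, unadjusted p = 0.0376 by edgeR). Dll4, the Notch ligand of arterial cells, had 8.39, 5.65 and 5.90 CPM in f/f and 5.54, 3.77, 4.86 and 6.52 CPM in the controls. Gja4 and Jag1 were also higher with overlap (log2 fold changes 0.42 and 0.44). The 3 lower genes were Gja5 (log2 fold change -0.16), Bmx (-0.05) and Unc5b (-0.27), all with overlap.

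Of 5 venous genes 2 were higher and 3 lower, with a median log2 fold change of -0.15. Ephb4, the receptor of ephrin-B2 on veins, had 40.0, 37.1 and 44.6 CPM in f/f and 64.6, 29.4, 30.1 and 55.8 CPM in the controls, with controls 1 and 4 above and controls 2 and 3 below every f/f library. Nr2f2, the venous fate factor COUP-TFII, did not overlap, with 10.4, 10.5 and 11.3 CPM in f/f and 9.74, 8.84, 8.96 and 8.31 CPM in the controls (unadjusted p = 0.147 by edgeR). Such a separation upward was found for 5.05% of all genes. Ackr1 had the lowest unadjusted p of the 5 and was lower with overlap (log2 fold change -0.62, SE 0.30, unadjusted p = 0.0674 by edgeR). Of 3 lymphatic genes tested, all had a log2 fold change above 0, with 0 without overlap. Reln was nearly level (0.0027), Pdpn had 0.10 (SE 0.52) and Prox1, the lymphatic master factor, 0.68 (SE 0.65). Prox1 had 2.45, 1.10 and 2.21 CPM in f/f and 2.90, 0.684, 0.820 and 0.326 CPM in the controls.

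The ligands of the receptors described above were 8 higher and 2 lower of 10 tested, with a median log2 fold change of 0.36 and 2 without overlap (5.05% of all genes). Vegfc, the ligand of VEGFR3, had 14.6, 11.9 and 13.6 CPM in f/f and 8.65, 8.67, 6.15 and 10.6 CPM in the controls. Every f/f library was above every control, with a log2 fold change of 0.65 (SE 0.21, unadjusted p = 0.0151 and adjusted p = 0.511 by edgeR). Vegfd, the other ligand of VEGFR3, had 2.72, 2.41 and 1.69 CPM in f/f and 1.5, 1.31, 1.52 and 0.543 CPM in the controls (log2 fold change 0.90, SE 0.38, unadjusted p = 0.0421 and adjusted p = 0.511 by edgeR). These were the 2 ligand genes without overlap. Angpt1, the ligand of TIE2, had 63.7, 49.4 and 29.99 CPM in f/f and 14.3, 53.4, 47.5 and 11.0 CPM in the controls, low in controls 1 and 4, whereas Vegfa had 101, 61.1 and 78.1 CPM in f/f and 63.6, 56.9, 83.1 and 56.6 CPM in the controls.

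Markers of other cells were counted in the same way, and their part in the endothelial values was not tested. Among all genes, 5.05% were higher and 6.3% lower without overlap. Of 10 pericyte and smooth muscle genes 9 were higher and 1 lower in f/f (summed level 588 to 692 CPM against 394 to 682 CPM in the controls), and of 8 skeletal muscle genes 8 were higher (23280 to 36150 CPM against 11090 to 24780 CPM). Of 7 erythroid genes 7 were lower, 4 of them without overlap (4417 to 10220 CPM against 11590 to 32220 CPM), and of 8 granulocyte genes 8 were lower, 3 of them without overlap (12070 to 15180 CPM against 17330 to 20100 CPM). Macrophage genes were 1 higher and 9 lower (1125 to 1325 CPM against 1151 to 1638 CPM), megakaryocyte genes 2 higher and 8 lower (1955 to 2099 CPM against 1471 to 3352 CPM), and B lineage genes 5 higher and 1 lower (279.6 to 318 CPM against 199.8 to 322 CPM). Osteocyte and osteoblast genes were 5 higher and 3 lower (8310 to 13800 CPM against 8165 to 40540 CPM). Most of that sum was Col1a1 (7010 to 12730 CPM against 7160 to 38290 CPM), so it says little of the osteocyte genes. Adipocyte genes were 3 higher and 1 lower (163 to 197 CPM against 60.9 to 409 CPM). Stem and progenitor genes were 2 higher and 1 lower (76.0 to 81.2 CPM against 74.2 to 82.8 CPM). Rgs5 of the pericyte list, Ebf1 of the B lineage list and Mecom of the progenitor list were higher without overlap (log2 fold changes 0.90, 0.56 and 1.01). Cd163 of the macrophage list was lower without overlap (-0.44). The skeletal muscle, megakaryocyte, osteocyte and adipocyte lists held 0 genes without overlap. No gene of these lists passed the adjusted threshold, and among their genes a value of 0 occurred once, for the adipocyte gene Lep in control 2. The 35 endothelial genes together held 2643 to 2949 CPM in f/f and 2175 to 3273 CPM in the controls, so their sum did not separate the groups. The highest sum was that of control 4, where Vwf, shared with megakaryocytes, alone held 1047 CPM.

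**Figure D5:**
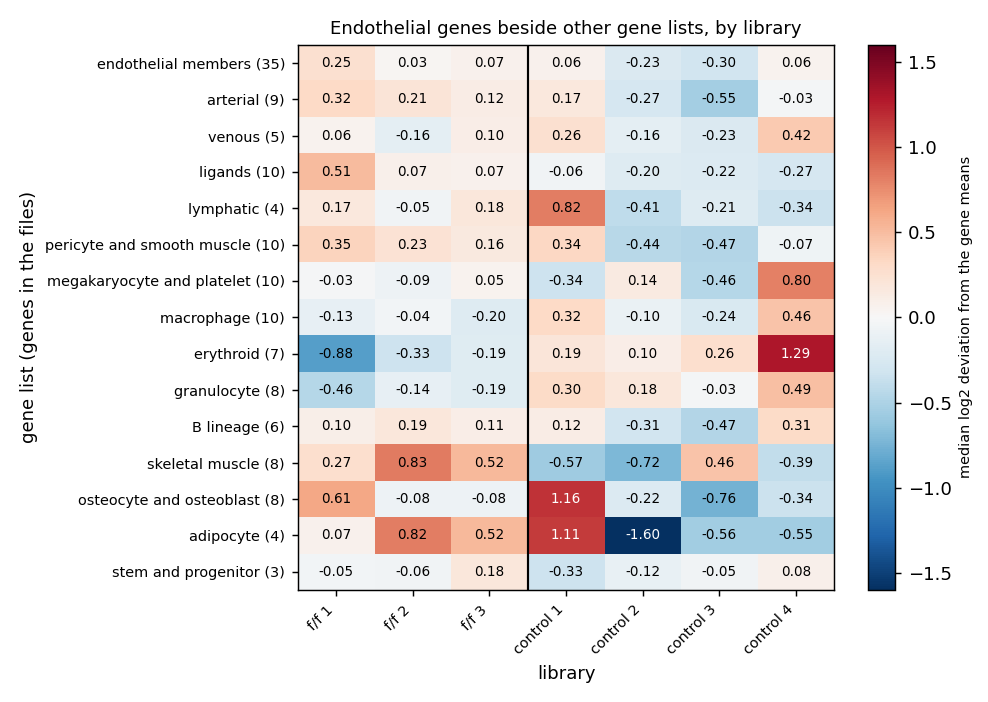
Median over each gene list of the deviation of its genes from their own means, in log2 CPM, for the 3 f/f libraries (left of the line) and the 4 controls. The endothelial row runs from 0.25 in f/f replicate 1 to -0.30 in control 3, while the erythroid row runs from -0.88 in f/f replicate 1 to 1.29 in control 4.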

How the data were processed

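RNA of flushed femora (TruSeq kit, 100-base paired reads) was mapped by the authors to mm10 with Rsubread. The authors deposited raw counts per Entrez gene from featureCounts (version not given in the sources used here), without normalization or pooling, with bcl2fastq 2.17.1.14 named in the submitters' processing notes. Strand was not stated, and 13 of the 35 genes share their span with another annotated gene. For Eng, Cd34, Egfl7, Plvap, Nos3 and Stab1 such a gene was also counted, so reads of overlapping genes may be split or left out. For the others of the 13 no overlapping gene was found by symbol among the genes counted.

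From these counts, genes at 0.65 CPM or more in at least 3 libraries were kept (16302 of 27179), and immunoglobulin segments, unnamed, predicted and pseudogenes, ribosomal RNA and the Y chromosome and Xist class were left out (15098 tested). In R 4.3.3, the quasi-likelihood test of edgeR 4.0.16 compared the genotypes on TMM-scaled counts, with robust dispersion and p-values adjusted by Benjamini-Hochberg. The test was first tried on simulated counts. Standard errors are the log2 fold change over the square root of F. RPKM used the gene lengths in the files. Exact permutation tests, two-sided, compared the levels of single genes. Alternatives were limma 3.58.1 (quantile normalization, prior count 2, with and without quality weights), DESeq2 1.42.0, other scalings and filters, replicate or parent cross as a block, each library left out, and controls 1 and 4 left out. The study also blocked on the day of collection, which the labels do not give, so it was not a term here. P-values measure the spread between the 7 libraries only. They treat libraries of a shared parent cross as independent, except where the cross was a block. Outside the cross of control 3 and f/f replicate 3, genotype and parent cross cannot be told apart.

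All 35 genes are accounted for. Per-library values are given for Efnb2, for genes without overlap and, in each role, for the highest, the lowest and the lowest p, with others added after their values were seen. The members and lists were chosen with earlier results of these data known. Positions are those of GRCm38.p6.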

Additional observations from a re-analysis of the deposited data

How the results depend on the processing

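The direction of Tek, Flt1, Ptprb and Emcn held under all 18 alternatives tried, with log2 fold changes from 0.41 to 0.62 for Tek, 0.37 to 0.67 for Flt1, 0.13 to 0.73 for Ptprb and 0.18 to 0.57 for Emcn. In the fit with a parent cross block, which rests on 1 mouse of each genotype, they were 0.41, 0.37, 0.13 and 0.57 in that order. The count of endothelial genes at an unadjusted p under 0.05 was 4 as reported. It was 7 with library size only, 17 with limma and quality weights and 17 with controls 1 and 4 left out. Over all genes the count at that p was 1459 as reported and 1415 with library size only. It was 4962 with limma and quality weights and 2614 without controls 1 and 4. With 1 library left out in turn it ran from 2 to 6 for the 35 genes, and from 425 to 2369 over all genes. Genes higher at an adjusted p under 0.05 numbered 10 with limma and quality weights. Over all genes that pipeline called 2246 and DESeq2 called 72, against 0 as reported. The count without overlap, 4 (5.05% of all genes higher), was 21 without controls 1 and 4 (19.6% of all genes higher). It ran from 4 to 9 with 1 library left out, for which no share of all genes is given. The 35 genes had a median log2 fold change of 0.16, which came to 0.40 in the fit with a parent cross block, which rests on 1 mouse of each genotype, and 0.45 without controls 1 and 4, and it ran from 0.07 to 0.27 with 1 library left out. Efnb2, 0.96, was 0.94 with DESeq2 (adjusted p = 0.0332) and 0.76 with limma and quality weights (adjusted p = 0.0162). With plain library sizes 4 genes changed rank by level. Under at least 1 alternative the direction turned for 19 of the 35 genes, 9 of the 25 higher and 10 of the 10 lower, most often for Tie1 and Lyve1 (11 of 18 each), Esam (7), Mmrn2 (6), and Plvap, Sox18 and Vwf (5 each). Among genes whose log2 fold change is printed it turned for Flt4 with limma and quality weights (0.0017), with the parent cross as a block (0.47) and without controls 1 and 4 (0.25), and for Sox17 with limma and quality weights (-0.052). It turned for Vwf with limma without weights (0.0077), the replicate block (0.060), the parent cross as a block (0.34), without control 4 (0.050) and without controls 1 and 4 (0.048), and for Stab2 in the fit with a parent cross block (-0.049) and without f/f replicate 1 (-0.032). The cause of these shifts was not tested.

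The replicate numbers did not pair the libraries: the deviations of same-numbered libraries correlated by -0.15, 0.06 and -0.42. With the replicate block 3 endothelial genes had an unadjusted p under 0.05, against 579 over all genes, and 0 of the 35 passed the adjusted threshold. The median of the 35 was then 0.23 on the log2 scale, and Efnb2 had a log2 fold change of 0.89. With 3 and 4 libraries and a median SE of 0.25 on the log2 scale, differences as small as the median size of 0.24 among the 35 genes were not detectable.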
